A study of Homo sapiens with 3 samples.

Results

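Enzymes and proteins that write, erase or read DNA methylation and histone marks were examined in Huh7 cells, an established human hepatoma line, after treatment with chlorogenic acid (CA), a plant polyphenol. The list held 51 genes chosen by symbol, and 48 of them were measured by at least 1 probe, out of 19740 gene symbols named on the array. No probe was named for TET3, MBD3 or EED. The members comprised DNA methyltransferases with UHRF1, TET dioxygenases, methyl-CpG binding domain proteins, histone deacetylases, sirtuins, acetyltransferases, Polycomb subunits, histone lysine demethylases, lysine methyltransferases and protein arginine methyltransferases. Total RNA came from 3 groups of Huh7 cells, which were untreated, treated with CA 50 μM, or treated with CA 100 μM, the treated cells for 24 h. Each group had 1 one-colour Agilent array, so no difference here has a replicate check and no test across samples was made. A single line was used, no genetic change was introduced, and the labels give no treatment for the untreated cells and mention no solvent.

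DNA methylation is copied after replication by DNMT1 with the help of UHRF1, set on new sites by DNMT3A and DNMT3B, and removed through oxidation by TET enzymes. Methyl-CpG binding proteins read it, while acetyltransferases and deacetylases, lysine methyltransferases and demethylases, and the Polycomb complexes set the histone marks that accompany active or silent genes. Catechol polyphenols such as CA have been reported to inhibit DNA methyltransferase activity. The arrays measured mRNA, and they hold no value for enzyme activity, DNA methylation or histone marks.

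The level of a probe is its processed signal in log2 units, less the 75th percentile of its array, and a log2 ratio is the difference of that level between 2 arrays. That percentile was 1059, 1207 and 1249 intensity units in the untreated, CA 50 μM and CA 100 μM groups. Of gene spots free of outlier flags, 70.4% to 71.1% read well above background. The 48 members had 82 probes, 77 of them above background on every array, and every measured member had at least 1 such probe. Where a gene had several probes, the brightest stands for it. Both doses were set against the same untreated array, so any peculiarity of that array enters both ratios.

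The error that these files can give is the spread within an array. For probes printed 10 times, the median SD of the log2 ratio between spots was 0.065 for CA 50 μM and 0.064 for CA 100 μM against untreated, and 0.126 and 0.132 in the dimmest of 4 classes of those probes. The scanner software's modelled error of a member's ratio was 0.20 at the median for CA 50 μM and rose to 0.35 for the dimmest member. Neither includes the variation between cultures, RNA extractions or hybridisations. The modelled error exceeded the ratio of 23 of the 48 members at CA 50 μM, of 36 at CA 100 μM and of 34 between the doses.

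Hepatocyte and hepatoma markers were well above background for 16 of 18 genes on all 3 arrays, with TF and HNF4A as the exceptions, and their summed signal was 596101, 609986 and 613893 units in the untreated, CA 50 μM and CA 100 μM groups. Of the leukocyte markers, 7 of 8 had a probe, all 7 were above background, and their summed signals were 3417, 4784 and 4072 units. For endothelial markers, 3 of 5 were above background (TEK and KDR were not) with sums of 801, 1095 and 1048 units, and 5 of 7 fibroblast and stellate markers were above it on all arrays (DCN on none) with sums of 630, 724 and 826 units. These unscaled sums of dim probes were higher in both treated groups. So was the 75th percentile of those arrays (1059, 1207 and 1249 units), which was not divided out of any sum here. The part of these sums in the results below was not tested. On the CA 100 μM array, 2541 gene spots (5.89%) lay in areas where otherwise dim probes were bright, against 46 and 38 such spots in the untreated and CA 50 μM groups, and members with such a spot are named where they appear.

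Most of these mRNAs were at a similar level on the 3 arrays, and 1 of 48 members, the sirtuin SIRT6, was at least 2-fold changed at CA 50 μM. Across all 14700 genes measured in that comparison, 0.973% were at least 2-fold changed in either direction. At least 1.5-fold higher were 6 of 48 members, namely SIRT6, HDAC10, SIRT2, EHMT2, KDM6B and EP300, against 4.15% of all genes. No member was 1.5-fold lower, against 2.17% of all genes. The median log2 ratio of the members was 0.02 (-0.03 with arrays centred on the median of measured probes), and that of all genes was -0.04 with an SD of 0.31. Above 0 were 26 of 48 members, against 43.7% of all genes. In these bulk samples, fewer cells of a type and less RNA per cell cannot be told apart.

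At CA 100 μM, 0 of 48 members reached 2-fold, against 0.656% of all 14640 genes. At least 1.5-fold higher were SIRT6 and EP300, 2 of 48 members, against 1.65% of all genes, and none was 1.5-fold lower, against 1.54%. The median of the members was -0.02 (0.008 with cyclic loess), and that of all genes was -0.03 with an SD of 0.25. Above 0 were 21 of 48 members, against 42.3% of all genes. Between the doses, 0 of 48 members differed by 2-fold, against 0.675% of all 14666 genes. SIRT6 was the 1 member at least 1.5-fold lower at CA 100 μM than at CA 50 μM, against 1.53% of all genes. The median of the members between the doses was -0.05, beside 0.002 for all genes, and 18 of 48 were above 0, against 50.5% of all genes.

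**Figure D1:**
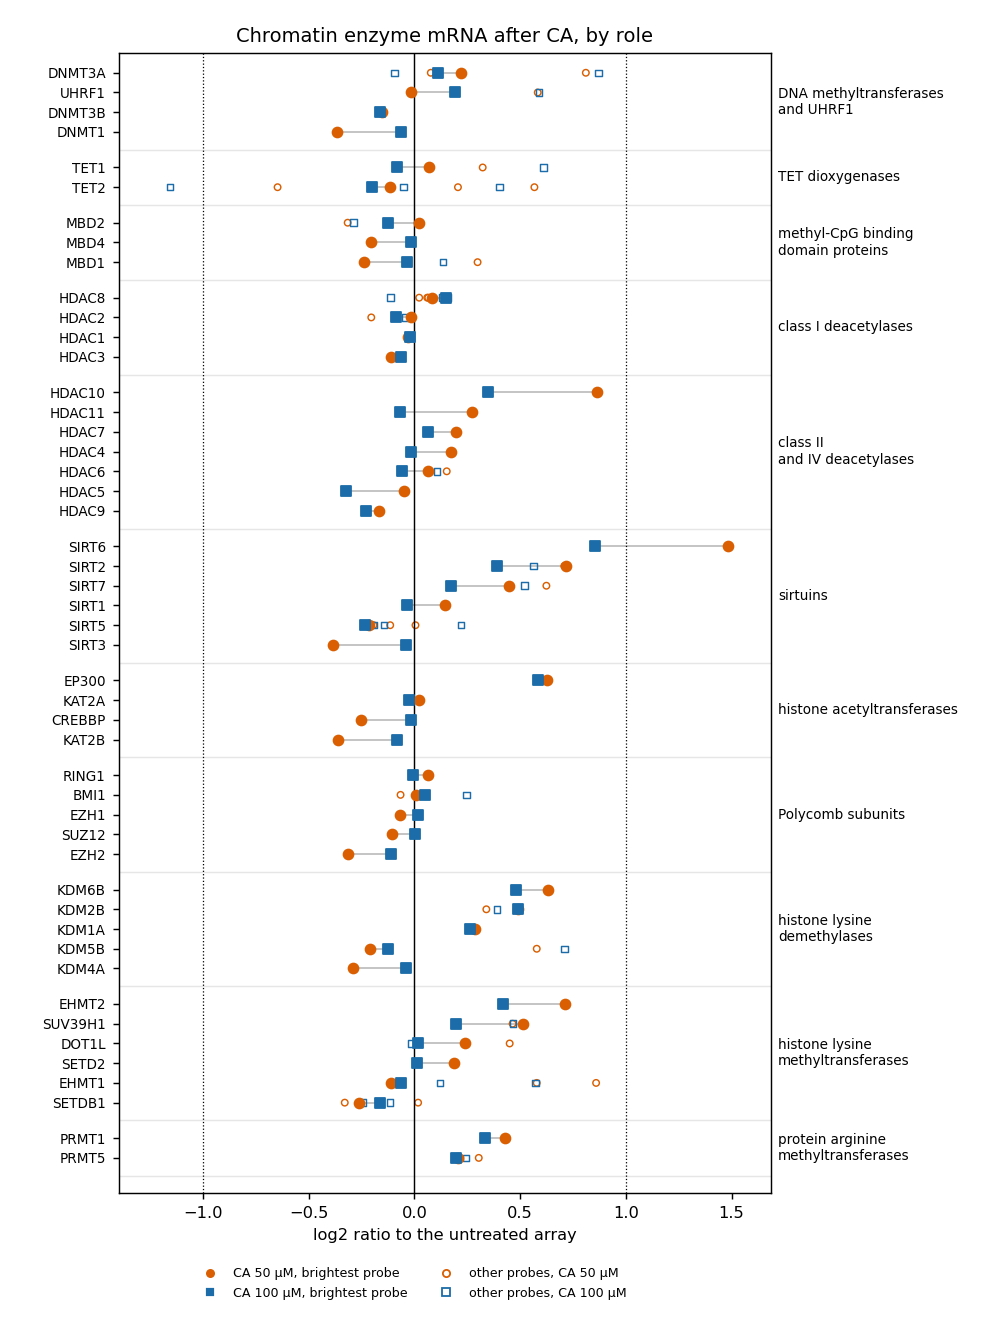
Log2 ratio to the untreated array (horizontal axis) for each measured member, grouped by role, with circles for CA 50 μM and squares for CA 100 μM, filled for the brightest probe and open for other probes well above background. Dotted lines mark 2-fold. SIRT6 at CA 50 μM is the 1 filled point beyond them, at 1.48, and a dim probe of TET2 is the 1 open point beyond them, at -1.16.

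The ratio depended on how bright a probe was. With all genes divided into 5 classes of signal, the median log2 ratio at CA 50 μM was 0.007 in the dimmest class and -0.11 in the brightest, and the share at least 1.5-fold changed fell from 14.1% to 0.816%. HDAC10, SIRT2 and KDM6B belong to the dimmest class, where 4 members were measured. In the next brighter class, that of SIRT6, 9.52% of genes were 1.5-fold changed, against 5.27% in the class of EHMT2 and 1.84% in that of EP300. The 15 members in the brightest class had a median of -0.10 at CA 50 μM, close to that class as a whole, and of -0.06 at CA 100 μM, where the class had -0.06.

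**Figure D2:**
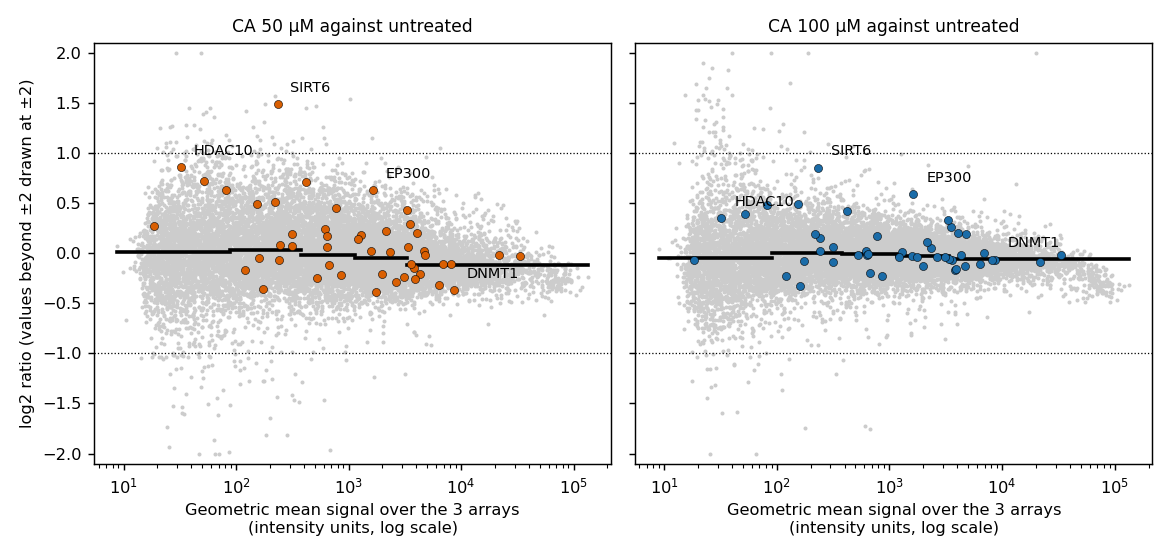
Log2 ratio to the untreated array (vertical axis, values beyond 2 in size drawn at the edge) against the geometric mean signal over the 3 arrays (horizontal log axis, intensity units), with all genes in grey and the members in colour. Black bars give the median of each of 5 signal classes. The spread of the grey points narrows from the dim to the bright end. Most DNA methyltransferases and class I deacetylases, each drawn by its brightest probe, lie toward the bright end.

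The promoters of 3 members are shown. SIRT6 and EP300 were the members 1.5-fold higher at both doses, though EP300 only just met that rule at CA 100 μM (1.501-fold). DNMT1 was the DNA methyltransferase that differed most at CA 50 μM. Sequences are those of RefSeq on GRCh38.p14, the 150 bases before the annotated start, written in the direction of the gene with CpG dinucleotides, the sites that these methyltransferases act on, in capitals. The SIRT6 stretch is at chr19:4182564-4182713 (minus strand) and holds 16 CpG, EP300 is at chr22:41092442-41092591 (plus strand) with 18, and DNMT1 is at chr19:10194954-10195103 (minus strand) with 13.
SIRT6: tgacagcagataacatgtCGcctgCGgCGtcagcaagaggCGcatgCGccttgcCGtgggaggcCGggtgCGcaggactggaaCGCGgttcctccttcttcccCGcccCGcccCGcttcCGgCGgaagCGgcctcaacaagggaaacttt
EP300: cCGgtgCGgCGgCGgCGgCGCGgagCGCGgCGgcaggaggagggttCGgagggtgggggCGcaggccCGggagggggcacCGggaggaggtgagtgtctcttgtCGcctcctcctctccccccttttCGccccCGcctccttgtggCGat
DNMT1: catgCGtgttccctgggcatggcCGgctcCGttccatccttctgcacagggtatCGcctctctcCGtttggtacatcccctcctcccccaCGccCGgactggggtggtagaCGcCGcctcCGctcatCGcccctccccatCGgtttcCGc

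Promoters of 300 bases (250 before and 50 after the start) were given for 48 of the 51 listed genes. Their median CpG count was 29, from 3 to 51, against 22 over 15841 protein-coding promoters, and their median GC content was 68.5% against 62.7%. The 6 members that were 1.5-fold higher at CA 50 μM had a median of 27 CpG. Searched on both strands, the GC box GGGCGG was in 60.4% of the members' promoters and 58.5% of all, the MAZ motif GGGAGGG in 43.8% and 30.3%, and the E-box CACGTG in 12.5% and 8.88%. The palindromic NRF1 motif was in 3 member promoters, those of MBD1, SIRT5 and SIRT6 (6.25%, against 1.75% of all). In the SIRT6 sequence it lies within the stretch shown. The windows of these motifs can overlap each other, and a match describes the letters of the window only.

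By their brightest probes, none of the DNA methyltransferases was 1.5-fold changed at either dose, and few genes of like signal were. DNMT1 and DNMT3B lay in the brightest signal class, where 0.816% and 0.307% of genes were 1.5-fold changed at the lower and higher dose. DNMT3A lay in the next class, with 1.84% and 0.444%. DNMT1, the maintenance methyltransferase, had levels of 3.02 untreated, 2.65 at CA 50 μM and 2.96 at CA 100 μM. It was thus lowest at the lower dose, with log2 ratios of -0.37 and -0.06 (modelled error 0.20 each). The de novo enzyme DNMT3B was at 1.80, 1.65 and 1.64, a difference of -0.15 and -0.16 that is smaller than the modelled error. The other de novo enzyme, DNMT3A, had 3 probes, and the brightest was at 0.78, 1.0 and 0.89, with ratios of 0.22 and 0.11. A dim DNMT3A probe was higher in both treated groups, at -4.39, -3.58 and -3.52 (ratios 0.81 and 0.87), though its CA 100 μM spot carried a background flag. Another dim probe was at -4.55, -4.47 and -4.64 (0.08 and -0.10). The 3 probes of DNMT3A therefore did not give the same ratio, and no value of one can be set against the level of another.

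UHRF1, which guides DNMT1 to newly replicated DNA, was at 1.99, 1.97 and 2.18 by its brighter probe, with ratios of -0.02 and 0.19. Its dimmer probe was higher at both doses, at -1.21, -0.63 and -0.62, with ratios of 0.58 and 0.59. With the mean over both probes in place of the brighter one, the ratio at CA 50 μM became 0.28. For the group of DNMT1, DNMT3A, DNMT3B and UHRF1, the medians at the lower and higher dose were -0.08 and 0.02, and the first became 0.07 with the mean over the probes of each gene.

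TET1 and TET2, which oxidise methylated cytosine, showed small differences in their brighter probes. TET1 was at -1.88, -1.81 and -1.96 by the brighter probe (ratios 0.07 and -0.08) and at -2.76, -2.44 and -2.15 by the other (0.32 and 0.61). TET2 was at -0.68, -0.80 and -0.89 by the brightest of its 4 probes (-0.12 and -0.20). The other TET2 probes differed from it and from one another. Their ratios at CA 50 μM and CA 100 μM were 0.21 and -0.05 for the first, 0.57 and 0.40 for the second, and -0.65 and -1.16 for the dimmest. The dimmest TET2 probe read 47.9, 34.9 and 25.4 intensity units, and its modelled error at CA 100 μM was 0.29. Of the 77 member probes above background on every array, this probe was the 1 at least 2-fold changed at CA 100 μM. In either direction, 0.709% of all named probes were at least 2-fold changed there.

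**Figure D3:**
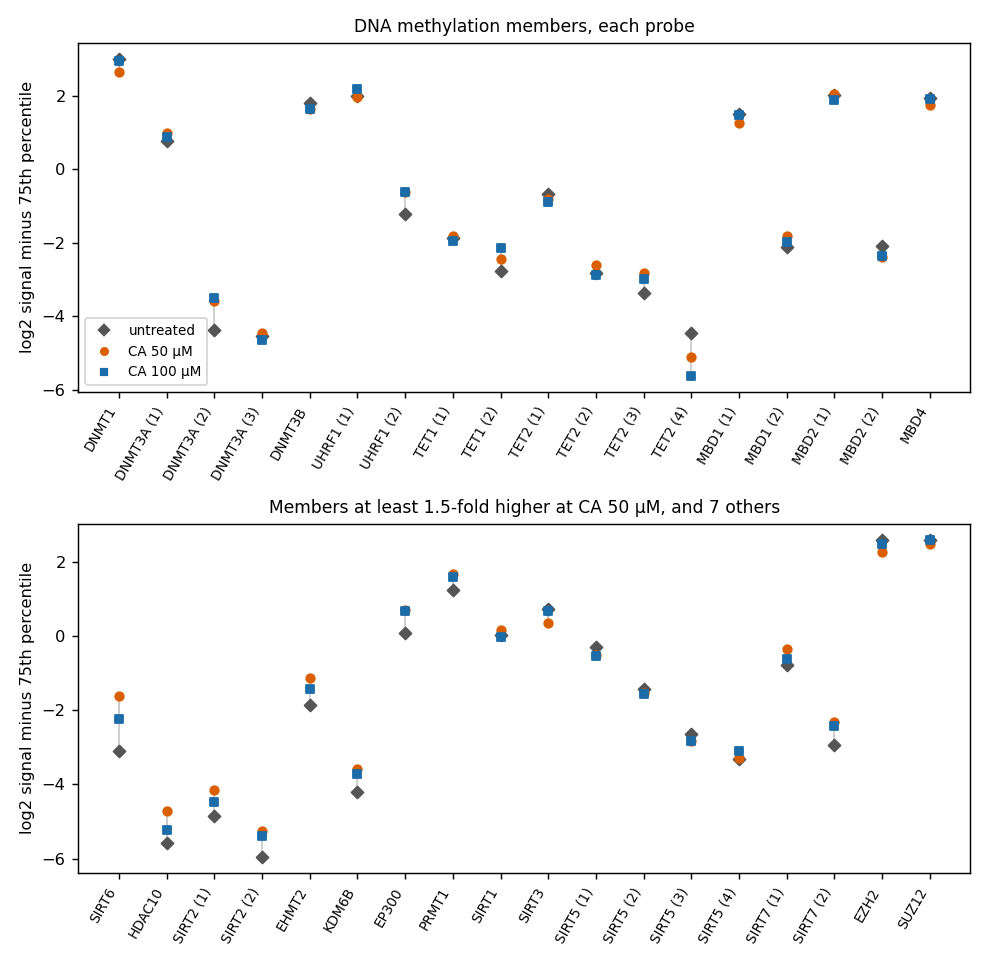
Level of each probe (vertical axis, log2 signal minus the 75th percentile of its array) on the untreated (diamonds), CA 50 μM (circles) and CA 100 μM (squares) arrays, for DNA methylation members above and other members below, with several probes of a gene numbered from the brightest. Levels are to be compared between arrays within a probe only, and the 3 SIRT6 points are the most separated of the brightest probes shown.

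Of the methyl-CpG binding proteins, 1 of 3 was above 0 at CA 50 μM and none was 1.5-fold changed, against 6.32% of all genes. Their median was -0.21, or -0.09 after subtracting the median of all genes in the signal class of each. MBD1 was at 1.5, 1.26 and 1.47 (ratios -0.24 and -0.04), and MBD4, which also carries a DNA glycosylase, was at 1.95, 1.74 and 1.93 (-0.21 and -0.02). MBD2 was at 2.03, 2.05 and 1.90 (0.02 and -0.13), but its spot on the CA 50 μM array lay in a disturbed area, and its second probe gave -0.32 and -0.29. A second probe of MBD1 gave 0.30 and 0.13, and another, dim probe was above background at CA 50 μM alone, which gives a bound of at least 1.29-fold higher. Over the 9 DNA methylation members, 3 were above 0 at the lower dose and 2 at the higher, with medians of -0.12 and -0.06. Of all genes, 43.7% and 42.3% were above 0.

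Class I deacetylases had ratios between -0.11 and 0.15 at both doses by their brightest probes. Of these, HDAC1, HDAC2 and HDAC3 form the cores of nuclear corepressor complexes. HDAC1 was at 4.85, 4.82 and 4.83 and HDAC2 at 4.26, 4.25 and 4.17, each as the mean of 8 to 10 spots left after outlier flags. The ratios were -0.03 and -0.02 for HDAC1 (1 of its 10 spots on the CA 100 μM array lay in the disturbed area) and -0.02 and -0.09 for HDAC2. HDAC3 had the lowest ratio of the group at CA 50 μM, with levels of 2.84, 2.73 and 2.78 (-0.11 and -0.06). HDAC8 had the highest, with -2.33, -2.25 and -2.18 by its brightest probe (0.09 and 0.15). The group medians were -0.02 and -0.04, and with cyclic loess they turned to 0.08 and 0.06. The 3 brighter probes of HDAC8 gave between 0.02 and 0.09 at CA 50 μM and between 0.13 and 0.16 at CA 100 μM, and the dimmest gave 0.07 and -0.11.

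Class II and IV deacetylases, several of which shuttle between cytoplasm and nucleus, had medians of 0.17 and -0.06, or 0.03 and -0.13 with another background correction, normexp with an offset of 50. Between the doses all 7 were below 0, with a median of -0.19, while 50.5% of all genes were above 0. With cyclic loess, HDAC9 was at 0.01 between the doses. HDAC10, a polyamine deacetylase, was at -5.58, -4.72 and -5.23, with ratios of 0.86 and 0.35 and a modelled error of 0.29 and 0.31. This was a dim probe, with 22.1, 45.8 and 33.2 intensity units. With normexp, its ratios became 0.08 and -0.15. HDAC5 had the lowest ratio of any member at CA 100 μM, with -2.73, -2.78 and -3.06 (-0.05 and -0.32), and HDAC9 was at -3.14, -3.31 and -3.37 (-0.17 and -0.23).

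The other class II enzymes lay between these. HDAC4 gave 0.17 and -0.02, the tubulin deacetylase HDAC6 gave 0.06 and -0.06, and HDAC7 gave 0.20 and 0.07. HDAC11, the class IV enzyme, was near background in all 3 of its probes, and the brightest gave 0.27 and -0.07 with errors of 0.35 and 0.38 and a spot in the disturbed area of the CA 100 μM array. Its other probes were not well above background on the untreated array and gave bounds of at least 1.48-fold and 1.05-fold higher at CA 50 μM. Second probes of HDAC4 and HDAC9 stayed near background on all 3 arrays and gave no ratio.

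Sirtuins, deacylases that use NAD, held the largest difference of the members. SIRT6, a nuclear enzyme acting on histones at telomeres and metabolic genes, read 123 intensity units untreated, 394 at CA 50 μM and 263 at CA 100 μM, or levels of -3.10, -1.62 and -2.25. It was highest at the lower dose, 2.80-fold above untreated at CA 50 μM (log2 ratio 1.48, modelled error 0.21) and 1.81-fold above it at CA 100 μM (0.85, error 0.21). The ratio between the doses was -0.63. SIRT6 had 1 probe with 1 spot, outside the disturbed areas, so no second probe can be set beside it. Under the 12 alternative settings its log2 ratio lay between 1.11 and 1.48 at CA 50 μM and between 0.59 and 0.85 at CA 100 μM.

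Other sirtuins differed in direction. SIRT2, mainly cytoplasmic, was higher by both of its dim probes, at -4.85, -4.14 and -4.46 for the brighter one (0.72 and 0.39) and with 0.71 and 0.56 for the other. With normexp background correction the SIRT2 ratios became 0.17 and 0.03. The nucleolar SIRT7 was at -0.79, -0.34 and -0.62 (0.45 and 0.17) and its second probe gave 0.62 and 0.52, although both spots lay in the disturbed area of the CA 100 μM array. SIRT1, the best studied nuclear sirtuin, was at 0.02, 0.16 and -0.02 (0.14 and -0.04). Among the mitochondrial enzymes, SIRT3 was lowest at CA 50 μM, at 0.73, 0.34 and 0.69 (-0.39 and -0.04), the lowest ratio of any member in that comparison. SIRT5, the other mitochondrial member, was at -0.30, -0.51 and -0.53 (-0.21 and -0.23) by the brightest of 4 probes. The other SIRT5 probes gave -0.11 and -0.14, -0.19 and -0.19, and 0.005 and 0.22, the last with its CA 100 μM spot in the disturbed area, and the mean over probes was -0.13 and -0.09. The 6 sirtuins had medians of 0.30 and 0.07, with 4 and 3 of them above 0, against 43.7% and 42.3% of all genes. The first median was 0.17 with normexp and the second -0.04 without disturbed areas.

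Among acetyltransferases, EP300 stood apart from its paralog CREBBP. EP300, a coactivator that acetylates histones at enhancers and promoters, was at 0.08, 0.71 and 0.67. Both treated arrays were higher, by log2 ratios of 0.63 and 0.59 (modelled error 0.20), with -0.04 between the doses. Under the 12 alternatives these ratios lay between 0.58 and 0.65 and between 0.55 and 0.60. The rule of 1.5-fold is 0.585 on this scale. With median centring and with normexp, EP300 fell short of it at both doses. The lowest values were 0.580 at CA 50 μM with median centring and 0.553 at CA 100 μM with normexp. EP300 had 1 probe with 1 spot, and both ratios share its untreated value. CREBBP was at -1.06, -1.32 and -1.08 (-0.25 and -0.02), with its CA 100 μM spot in the disturbed area. KAT2B was at -2.61, -2.97 and -2.69 (-0.36 and -0.08), while its paralog KAT2A was at 0.45, 0.48 and 0.43 (0.02 and -0.03).

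Polycomb subunits, which set and maintain repressive marks on histones, had medians of -0.07 and 0.003, the second -0.02 with median centring. EZH2, the catalytic subunit of proliferating cells, was at 2.59, 2.28 and 2.48 (-0.31 and -0.11), and EZH1, its paralog, gave -0.07 and 0.02. SUZ12, their partner, was at 2.59, 2.49 and 2.60 over 10 spots (-0.10 and 0.003). RING1, a ubiquitin ligase of the other Polycomb complex, gave 0.06 and -0.005 from levels of -0.88, -0.81 and -0.88, and its partner BMI1 was at 0.97, 0.98 and 1.02 (0.01 and 0.05). By their brightest probes, EZH2 was the 1 subunit whose ratio exceeded the modelled error, and it did so at CA 50 μM. That error is not reduced for the 10 spots of SUZ12, whose SD between spots was 0.03 for the ratio at CA 50 μM.

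Histone lysine demethylases had medians of 0.29 and 0.26, which became 0.15 and 0.05 with normexp background correction. KDM6B, which removes the Polycomb methyl mark, was at -4.20, -3.57 and -3.72 (0.63 and 0.48), and with normexp background correction these ratios of a dim probe became 0.15 and 0.10. KDM2B, which binds unmethylated CpG islands, was at -3.25, -2.76 and -2.76 (0.49 and 0.49), and its second probe gave 0.34 and 0.39. KDM1A, a flavin-dependent demethylase, gave 0.29 and 0.26 from 1.42, 1.70 and 1.68, with its CA 100 μM spot in the disturbed area. Lower at CA 50 μM were KDM4A, at 1.29, 1.0 and 1.25 (-0.29 and -0.04), and KDM5B, at 0.88, 0.67 and 0.75 (-0.21 and -0.12). A dim second probe of KDM5B went the other way, with 0.58 and 0.71.

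Lysine methyltransferases had medians of 0.21 and 0.01, the second -0.006 with median centring. EHMT2, which places repressive methyl groups on histones, was at -1.85, -1.14 and -1.43 (0.71 and 0.42). Its partner EHMT1 was at 1.67, 1.55 and 1.60 by the brightest probe (-0.11 and -0.06), while 2 dim probes of EHMT1 gave 0.86 and 0.58 at CA 50 μM, and 0.57 and 0.12 at CA 100 μM. SUV39H1, a heterochromatin enzyme, gave 0.51 and 0.19 from -2.65, -2.13 and -2.45, and 0.46 and 0.47 by its second probe. SETDB1, another enzyme of silent chromatin, had the lowest ratios of the group, with 1.87, 1.61 and 1.71 (-0.26 and -0.16). DOT1L gave 0.24 and 0.02, and SETD2, which marks transcribed gene bodies, gave 0.19 and 0.01. The arginine methyltransferases were both above 0 at each dose, where 43.7% and 42.3% of all genes were. PRMT1 was at 1.25, 1.68 and 1.59 (0.43 and 0.33) and PRMT5 at 1.66, 1.87 and 1.86 (0.21 and 0.20).

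Over all 39 histone enzymes and subunits, 23 were above 0 at the lower dose and 19 at the higher. Of all genes, 43.7% and 42.3% were above 0. The medians of the 39 were 0.06 and -0.005. Several probes of 1 gene often differed: of 20 members with at least 2 measured probes, the dimmer probes averaged a higher ratio than the brightest in 13 at the lower dose and 14 at the higher. Over all named genes with several measured probes, that share was 69.7% and 71.2%. The median range between the probes of a member was 0.21 at CA 50 μM, and it was 0.25 over all genes.

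Related genes outside the list were grouped into 7 lists, with 180 genes in all, of which 154 and 155 were measured at CA 50 μM and CA 100 μM. At least 2-fold changed were 0 of 154 and 1 of 155, against 0.973% and 0.656% of all genes, and the medians were 0.02 at both doses. For the counts above 0 in each list below, the shares of all genes were 43.7% at CA 50 μM and 42.3% at CA 100 μM. Among 15 other genes of the DNA methylation machinery, 8 were above 0 at each dose. Their medians were 0.03 and 0.01 (-0.04 at CA 50 μM with normexp and -0.007 at CA 100 μM with median centring). None was 1.5-fold changed, against 6.32% and 3.18% of all genes. IDH2, which supplies the TET cofactor, gave the highest ratio at CA 50 μM (0.37), DMAP1, a partner of DNMT1, the highest at CA 100 μM (0.25), and GADD45B, linked to DNA demethylation and stress, the lowest at both (-0.54 and -0.40).

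The cycle of S-adenosylmethionine, the methyl donor of DNA and histone methyltransferases, had 17 measured genes. Of these, 14 were above 0 at each dose, against 43.7% and 42.3% of all genes. The medians of this list were 0.12 and 0.08, the highest of the 7 lists at both doses and above 0 under the 12 alternatives. Over all genes they were -0.04 and -0.03. PEMT and GAMT, methyltransferases that make phosphatidylcholine and creatine, gave 0.61 and 0.60 at the lower dose and 0.27 and 0.35 at the higher. AHCY, which clears the inhibitory product S-adenosylhomocysteine, read 1385, 2040 and 1983 intensity units (0.37 and 0.28), so that both treated arrays were above the untreated one. NNMT, which methylates nicotinamide, went the other way, with 377, 261 and 387 units (-0.72 and -0.20).

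**Figure D4:**
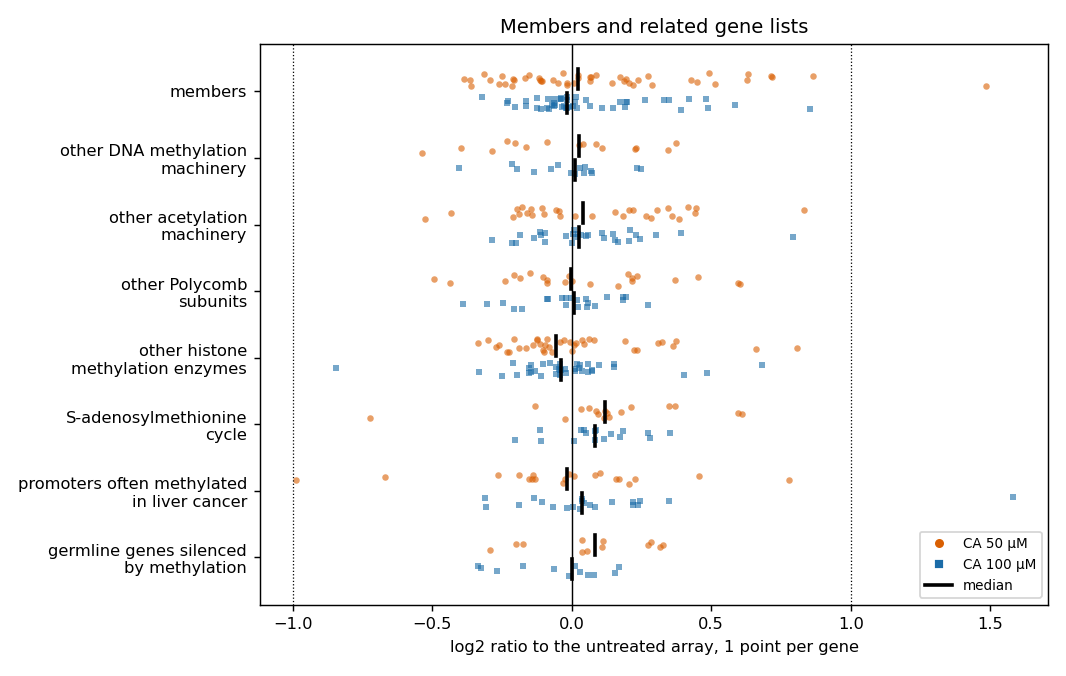
Log2 ratio to the untreated array (horizontal axis) for each measured gene of the members and of 7 related lists, with circles for CA 50 μM, squares for CA 100 μM and black bars for the medians. Dotted lines mark 2-fold. The list medians lie between -0.06 and 0.12, and CDKN2B at CA 100 μM, at 1.58, is the farthest point.

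The remaining partners of the members were mixed. Of 30 measured genes of acetylation and its readers, 16 were above 0 at CA 50 μM, from the bromodomain protein BRD3 (0.83) to GATAD2B (-0.52), and 20 at CA 100 μM, from NCOA3 (0.79, spot in the disturbed area) to GATAD2B (-0.28). Of 22 other Polycomb subunits, 11 were above 0 at each dose, with PCGF2 highest (0.60) and PHC1 lowest (-0.49) at CA 50 μM, and PHC1 again lowest (-0.39) at CA 100 μM. Of 38 other histone methylation enzymes, 15 and 16 were above 0. KDM2A, the paralog of KDM2B, was highest at CA 50 μM (0.81) and SETDB2 lowest (-0.34). At CA 100 μM, RBBP5 was highest (0.68, spot in the disturbed area) and PHF8 lowest (-0.84, a dim probe).

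Measured genes whose silencing is often tied to DNA methylation were mostly near their untreated levels, with list medians from -0.02 to 0.08. A ratio needs a probe well above background on both arrays, so genes that stayed silent are not in these medians. All 26 listed liver cancer genes had a probe, and 22 of the 27 listed germline genes did. Of 20 measured genes with promoters often methylated in liver cancer, 9 were above 0 at CA 50 μM, and of 21 measured at CA 100 μM, 14 were. CDKN2B, an inhibitor of cell cycle kinases, read 21.0, 41.1 and 73.9 intensity units (0.78 and 1.58), with its CA 100 μM spot in the disturbed area. SPINT2, a protease inhibitor, read 542, 311 and 652 units (-0.99 and 0.03, and 1.02 between the doses), and its CA 100 μM spot lay there too. At CA 100 μM PYCARD was lowest, with -0.31. Of 12 measured germline genes that DNA methylation keeps silent in other tissues, 9 were above 0 at CA 50 μM and 6 at CA 100 μM, from TUBA3D (0.33) to TDRD6 (-0.29) and from TEX14 (0.17) to MAGEA6 (-0.34). MAGEA4 was well above background at CA 100 μM alone, in the disturbed area, with a bound of at least 2.46-fold higher.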

How the data were processed

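Total RNA of untreated Huh7 cells and of Huh7 cells given CA 50 μM or CA 100 μM was amplified by the authors, labelled with Cy3 and run on 1 Agilent 1-colour array per group. The authors extracted the scans with Agilent Feature Extraction 11.0.1.1 (submitters' processing notes), and the deposited intensity values in arbitrary units are background-subtracted and not scaled between arrays. The authors also deposited log2 values per probe in a table, whose normalization is not given in the sources used here, and it served as an alternative only. Groups follow the treatment in the labels. With 1 array per group, no batch of slide or scan could be fitted, and the number of arrays limits the precision.

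Here, processed signals were put on the log2 scale and each array's 75th percentile was subtracted, without control spots and without spots flagged as non-uniform or population outliers (429 gene spots for untreated, 569 for CA 50 μM and 596 for CA 100 μM). Spots of a probe were averaged. A probe was taken as above background if the flag held in 50% or more of its spots. Ratios need this on both arrays, and a probe above it on 1 array gave a bound. In a bound, the dim side is the higher of the lowest probe signal above background on that array and the dim probe's own signal. RefSeq accessions named 25771 of 34127 probes (75.5%) through a gene table of GRCh38.p14. The array design was annotated on GRCh37, so probes have no coordinates here. A gene was represented by its brightest measured probe over the 3 arrays. Changes of 2-fold and 1.5-fold are fixed rules of size, not tests.

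Members and gene lists were chosen with earlier results of these data known. Values are given on every array for the DNA methyltransferases, UHRF1 and TET members, members with a probe or bound of at least 2-fold, the 5 largest ratios against untreated at each dose, members whose probes differ by at least 1 in log2, and the extremes of each role group. From related lists, genes changed 2-fold or the extremes are named. Other genes named are members given for completeness, or were chosen after their values were seen (AHCY, MAGEA4). Some genes of the related lists are not reported here. A disturbed area was a window of 17 by 7 spots where 5 or more spots, making up 25% or more of the dim ones, were 4-fold brighter on 1 array.

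Tried as alternatives were cyclic loess, quantile normalization, median centring, normexp with an offset of 50, the deposited log2 table, a filter on 1 array, no filter, leaving out disturbed areas, saturated spots or background-flagged spots, and the mean or median over the probes of a gene. Normexp used median spot and background intensities, without spots with background flags. The steps were tested on simulated data. Software was R 4.3.3 with limma 3.58.1, and Python 3.11.15 with matplotlib 3.10.9, pandas 2.3.3 and numpy 2.4.6.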

Additional observations from a re-analysis of the deposited data

How the results depend on the processing

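No replicate could be left out and no paired analysis was possible because each group had 1 array. Under the 12 alternatives, the median log2 ratio of the members lay between -0.03 and 0.09 at CA 50 μM (0.02 as reported), between -0.04 and 0.008 at CA 100 μM (-0.02) and between -0.05 and -0.02 between the doses (-0.05). The count of members at least 2-fold changed was 1, 0 and 0 for CA 50 μM, CA 100 μM and between the doses, under each of the 12 alternatives. Member ratios kept their sign under all alternatives for 36 of 48 members at CA 50 μM, 31 at CA 100 μM and 36 between the doses. The count at least 1.5-fold higher at CA 50 μM was 6, beside 610 of all 14700 genes. It was 5 with quantile normalization (491 of 14696 genes), cyclic loess (518 of 14696) or the deposited log2 table (491 of 14700). With median centring it was 4 (479 of 14700) and with normexp 2 (213 of 14404). At CA 100 μM it was 2 (241 of 14640), and 1 with median centring (225 of 14640) or normexp (30 of 14302). Over all genes, the share at least 1.5-fold changed at CA 50 μM was 6.32%, and it was 13.2% without a filter on background. At CA 100 μM it was 3.18%, then 0.615% with normexp and 11.6% without a filter. Normexp adds an offset of 50 to every spot, so ratios of dim probes shrink by construction. Leaving out disturbed areas left 44 members with a ratio at CA 100 μM, and MBD2 was then represented at CA 50 μM by its second probe (-0.32).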
